A study of Homo sapiens with 6 samples.

Results

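Small nucleolar RNA host genes are transcription units that contain the sequences of small nucleolar RNAs (snoRNAs), mostly within their introns. They were taken here as every row of the deposited gene table that carries a symbol made of SNHG and a number, or the symbol GAS5, ZFAS1, EPB41L4A-AS1, TMEM107 or CCDC200, which gave 33 of 48114 rows. RefSeq lists 31 of them as long noncoding RNAs and the other two, TMEM107 and CCDC200, as protein coding. In 27 rows the symbol stood alone, and 6 rows of the table merged it with another gene: SNHG3 with RCC1, SNHG4 with MATR3, SNHG10 with SCARNA13, SNHG14 with IPW, SNRPN and SNURF, SNHG20 with SEC14L1, and SNHG28 with VSIG8. Those merged values belong to both genes and are called rows below. The rows lay on 15 chromosomes, 7 of them on chromosome 17, and spanned 340 to 595855 bases of the hg38 genome, with a median of 6642.

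The RNA came from cells of TC-71, an Ewing sarcoma line of human origin that the labels call wild type (WT), kept for 16 h in BEZ235 or for 16 h in its solvent dimethyl sulfoxide (DMSO). BEZ235 inhibits the kinases PI3K and mTOR, and the comparison asks how RNA levels differ after that inhibition. Each treatment had 3 libraries, described as biological replicates, all of this 1 line. No dose is stated.

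A snoRNA guides the chemical modification of ribosomal and other RNAs: box C/D snoRNAs direct ribose methylation and box H/ACA snoRNAs direct the conversion of uridine to pseudouridine. Most human snoRNAs are trimmed out of an excised intron of the host, while the spliced exons form a separate RNA that can leave the nucleus. Several host RNAs carry short reading frames and are degraded when translated, by nonsense-mediated decay, and several begin with a C followed by a run of pyrimidines, the 5′ terminal oligopyrimidine (TOP) start through which mTOR controls the translation of ribosomal protein mRNAs.

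The start of each host gene was read in RefSeq (GRCh38.p14), which held a promoter entry for 29 of the 33 genes. SNHG6, SNHG9, SNHG15 and SNHG25 had none. A C followed by at least 4 C or T, within 5 bases before to 5 bases after the annotated start, was present in 9 of the 29 genes (31%), against 15.3% of 35116 promoters in the table. On the opposite strand the same letters were present in 4 of the 29 (13.8%) and in 11.1% of all promoters. The letters TATAA, looked for from 45 to 16 bases before the start after the sequences had been read, were present in 6 of the 29 (20.7%) and in 4.09% of all promoters. On the opposite strand TATAA was present in 2 of the 29 (6.9%) and in 1.95% of all promoters. All 6 genes with TATAA also had the pyrimidine start, a combination present in 0.567% of all promoters. The 8 tested genes with a pyrimidine start are shown with SNHG29 and EPB41L4A-AS1, which had neither motif. Each line runs from 40 bases before to 39 after the annotated start, 5′ to 3′, with TATAA and the pyrimidine run found in the window in capitals.
SNHG7, chr9:136728145-136728224, - strand: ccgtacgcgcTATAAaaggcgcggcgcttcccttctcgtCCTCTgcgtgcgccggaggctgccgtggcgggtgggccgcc
SNHG8, chr4:118278722-118278801, + strand: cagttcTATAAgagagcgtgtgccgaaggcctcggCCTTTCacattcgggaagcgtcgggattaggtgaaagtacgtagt
SNHG12, chr1:28581834-28581913, - strand: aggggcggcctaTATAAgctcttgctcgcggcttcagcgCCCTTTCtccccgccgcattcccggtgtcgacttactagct
SNHG5, chr6:85678694-85678773, - strand: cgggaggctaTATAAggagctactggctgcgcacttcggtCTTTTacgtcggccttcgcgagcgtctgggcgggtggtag
SNHG19, chr16:2155319-2155398, - strand: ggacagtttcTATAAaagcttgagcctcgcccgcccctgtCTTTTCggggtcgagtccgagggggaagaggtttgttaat
ZFAS1, chr20:49278602-49278681, + strand: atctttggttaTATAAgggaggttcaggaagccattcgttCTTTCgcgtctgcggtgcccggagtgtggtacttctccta
SNHG4, chr5:139274061-139274140, + strand: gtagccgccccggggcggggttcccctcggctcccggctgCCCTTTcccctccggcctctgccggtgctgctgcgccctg
SNHG32, chr6:31834876-31834955, + strand: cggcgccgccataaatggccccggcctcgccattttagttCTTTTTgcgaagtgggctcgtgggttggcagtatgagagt
SNHG29, chr17:16438947-16439026, + strand: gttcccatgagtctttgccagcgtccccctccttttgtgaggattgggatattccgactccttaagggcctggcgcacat
EPB41L4A-AS1, chr5:112160486-112160565, + strand: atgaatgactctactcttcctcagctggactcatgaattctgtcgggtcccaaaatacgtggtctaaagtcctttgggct
A match describes these letters and is not evidence of a transcription start in these cells. Where no match was found, only that window lacks the letters.

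The deposited values are normalized gene counts, which are relative within a library, so that a change in the RNA of each cell, in the make-up of the culture or in the rest of the RNA cannot be told apart. A row was tested where it reached 10 normalized counts in at least 3 of the 6 libraries, and a row is said to rise or fall where limma gave a Benjamini-Hochberg adjusted p under 0.05 over all 23923 tested rows. Fold changes are differences of means of log2(normalized count + 1), BEZ235 minus DMSO. Libraries of the same group correlated at 0.982 to 0.987 and libraries of different groups at 0.927 to 0.939. All 10 markers listed for Ewing sarcoma cells passed the filter, 6 higher and 3 lower in BEZ235, with a summed level of 423671 to 443019 in BEZ235 and 462034 to 513997 in DMSO. Of 16 markers listed for other cell types 9 passed, 3 higher and 3 lower, with a summed level of 7080 to 7518 in BEZ235 and 11096 to 12333 in DMSO. COL1A1 (mean 5078 in BEZ235 and 8449 in DMSO), KRT8 (638 and 1263) and LUM (135 and 863) fell. DCN (717 and 602), EPCAM (115 and 55.3) and LYZ (34 and 9.42) rose, and CD3E and HBB were at 0 in every library. The part of these markers in the results was not tested.

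Host genes moved in both directions. Of the 33 rows 30 were tested, 11 rose and 10 fell with BEZ235, and 9 were not called. That is 70% called, against 66.3% of all tested rows. Higher calls made up 36.7% of the tested host genes and 33.1% of all tested rows, and lower calls 33.3% and 33.2%. The groups did not overlap in 21 of the 30, 11 higher and 10 lower, against 70.9%, 35.5% and 35.4% of all tested rows. These shares are near the background. At least 2-fold changes were called for 4 higher and 1 lower host gene, against 26.3% of all tested rows in either direction. The median log2 fold change was 0.02 for the host genes and -0.00 for all tested rows, and the median size of change was 0.57 against 0.60. Under total-count scaling 8 host genes rose and 11 fell. With only the rows of 1 symbol 10 rose and 7 fell, of 24 tested. 3 rows were not tested. SNHG22 had 3.47, 8.88 and 8.15 normalized counts in BEZ235 against 16.2, 3.1 and 7.51 in DMSO, SNHG18 had 3.47 in 1 BEZ235 library and 0 in the other 5, and SNHG27 was at 0 throughout.

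**Figure D1:**
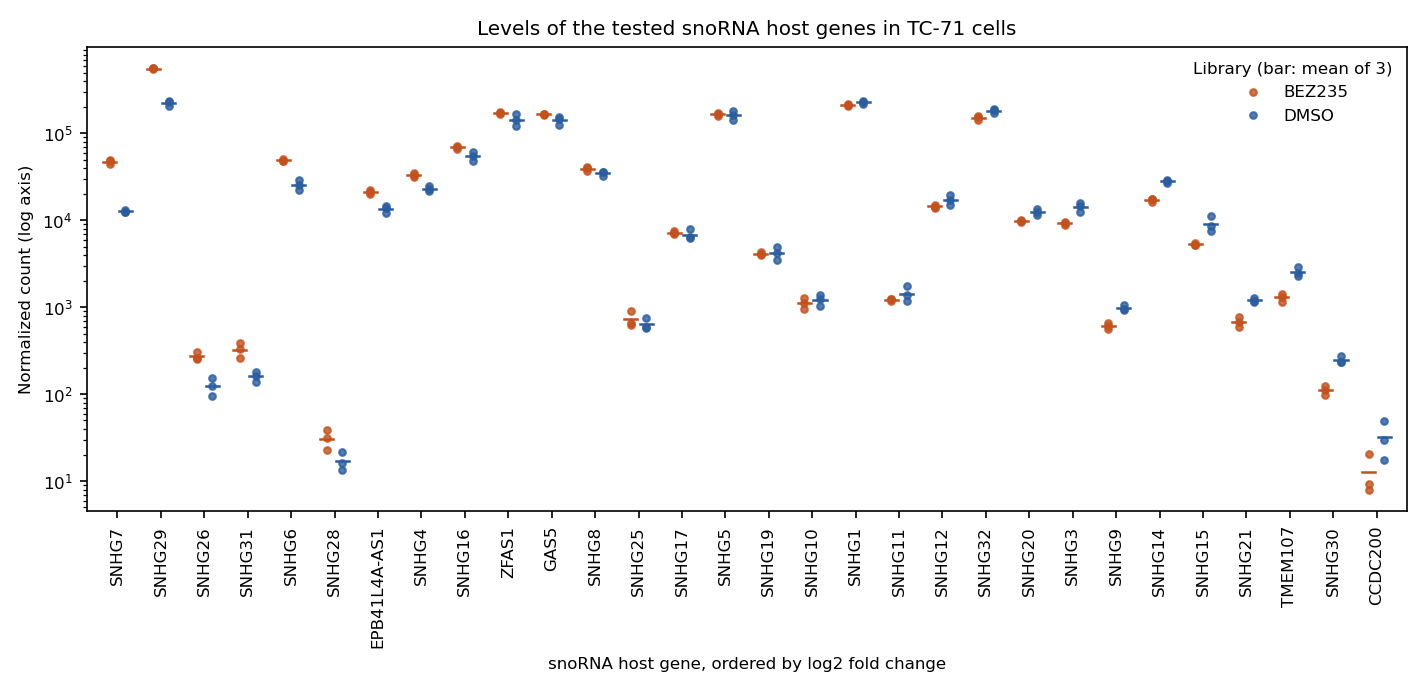
Normalized counts (log axis) of the 30 tested snoRNA host genes in each library, 3 with BEZ235 (left of each pair) and 3 with DMSO, with bars at the means; genes run from the highest to the lowest log2 fold change. The SNHG7 libraries lie at 44780.5 to 48929 with BEZ235 and 12512 to 13104 with DMSO, and the libraries of ZFAS1, SNHG25, SNHG17, SNHG5, SNHG19, SNHG10, SNHG11, SNHG12 and CCDC200 overlap between the groups.

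Together the 33 rows held 0.833%, 0.815% and 0.855% of the normalized counts of the BEZ235 libraries, against 0.698%, 0.652% and 0.702% in DMSO. All 3 BEZ235 libraries were higher, although exact permutation of 3 against 3 libraries cannot give a two-sided p below 0.1. SNHG29 alone made up 0.262%, 0.258% and 0.271% in BEZ235, against 0.114%, 0.109% and 0.118% in DMSO. Without SNHG29 the other rows held 0.572%, 0.556% and 0.584% in BEZ235, against 0.584%, 0.543% and 0.584% in DMSO. With SNHG29 the groups were apart, and without it they overlapped.

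The host genes that rose the most were SNHG7, SNHG29, SNHG26, SNHG31 and SNHG6. SNHG7 (chr9:136721366-136728184), a long noncoding RNA whose start carries both motifs shown above, had 48264, 48929 and 44780.5 normalized counts in BEZ235 against 12644, 12512 and 13104 in DMSO (log2 fold change 1.89, SE 0.053, adjusted p = 5.03e-10). Every BEZ235 library lay above 3 times every DMSO library. The gene DIPK1B on the opposite strand overlaps 3377 bases of this row, and its own row also rose, with 13926, 13874 and 13411 in BEZ235 against 7538, 7641 and 7833 in DMSO (log2 fold change 0.84, SE 0.048, adjusted p = 7.12e-08). SNHG29 (chr17:16438987-16470648), host of SNORD65, had 564217, 559302 and 544707 in BEZ235 against 234419.7, 208759 and 230258 in DMSO (log2 fold change 1.31, SE 0.070, adjusted p = 4.06e-08). The groups were far apart. LRRC75A, on the opposite strand across 29055 bases of SNHG29, rose by a similar amount (log2 fold change 1.33, SE 0.065, adjusted p = 2.15e-08), at 7.33% of the SNHG29 level in BEZ235 and 7.23% in DMSO. No source used here says whether the counting kept strand, so reads of overlapping genes cannot be told apart.

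SNHG6, host of the box C/D snoRNA SNORD87, had 50890.5, 48194 and 48303 in BEZ235 against 29068, 22470.1 and 25234 in DMSO (log2 fold change 0.95, SE 0.082, adjusted p = 1.64e-06). Its 3 BEZ235 libraries all exceeded its highest DMSO library. SNHG26 (chr7:22854240-22861436), host of SNORD93, had 310.4, 253 and 259 in BEZ235 against 154, 96.1 and 124 in DMSO (log2 fold change 1.15, SE 0.199, adjusted p = 0.000396). SNHG31 (chr2:214810229-214963605) had 386, 332 and 264 in BEZ235 against 162, 183 and 138 in DMSO (log2 fold change 1.01, SE 0.181, adjusted p = 0.000492). Both were low in count, and both groups stayed apart. ABCA12 on the opposite strand overlaps SNHG31 over 32064 bases, at 30.9% of the SNHG31 level in BEZ235 and 31.9% in DMSO. It rose as well (log2 fold change 0.90, SE 0.349, adjusted p = 0.0408), though its groups overlapped.

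Among the genes of smaller change, EPB41L4A-AS1 (chr5:112160526-112162501), host of SNORA13 and transcribed opposite to the cytoskeletal gene EPB41L4A, had 22571, 21427 and 20099 in BEZ235 against 14683, 12170.4 and 13920 in DMSO (log2 fold change 0.66, SE 0.073, adjusted p = 1.32e-05). EPB41L4A itself rose (log2 fold change 1.07, SE 0.114, adjusted p = 8.65e-06). The row of SNHG4 and MATR3, which encodes an RNA-binding nuclear matrix protein, had 34843, 33198 and 31429 in BEZ235 against 24540.2, 22010.4 and 23067 in DMSO (log2 fold change 0.51, SE 0.059, adjusted p = 1.64e-05). SNHG16 (chr17:76557764-76565348), host of SNORD1A and SNORD1B, had 72245, 70276 and 65826 in BEZ235 against 60797, 48721 and 55648 in DMSO (log2 fold change 0.34, SE 0.078, adjusted p = 0.00264). In all 3 the groups did not overlap, though the gap for SNHG16 was small, between 65826 and 60797.

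GAS5, ZFAS1 and SNHG8 rose by little. GAS5 (chr1:173863899-173868882), a growth-arrest transcript long known as a TOP RNA and a target of nonsense-mediated decay, had 168435, 166326 and 163191 in BEZ235 against 154721, 125506 and 146657 in DMSO (log2 fold change 0.23, SE 0.077, adjusted p = 0.0226). ZFAS1 (chr20:49278178-49289260), the antisense neighbour of ZNFX1 and host of 3 SNORD12 copies, had 178292, 166515 and 173597 in BEZ235 against 166836, 121751 and 141956 in DMSO (log2 fold change 0.28, SE 0.098, adjusted p = 0.0266). SNHG8 (chr4:118278757-118279822), host of SNORA24, had 40677, 40220.2 and 37399.8 in BEZ235 against 36212, 32159 and 35721 in DMSO (log2 fold change 0.19, SE 0.061, adjusted p = 0.0195). The ZFAS1 groups overlapped by 1 library, and the DMSO libraries of GAS5 and ZFAS1 were more spread than the BEZ235 libraries. These calls depended on single libraries. GAS5 had an adjusted p of 0.0707 without BEZ235 replicate 1, 0.0617 without BEZ235 replicate 2 and 0.0558 without DMSO replicate 2, within a range of 0.00472 to 0.226 over all 17 alternatives. ZFAS1 had 0.0818 without BEZ235 replicate 1, 0.0685 without BEZ235 replicate 3, 0.0704 without DMSO replicate 2 and 0.072 without DMSO replicate 3, within 0.00101 to 0.158. SNHG8 had 0.0803 without BEZ235 replicate 1 and 0.0693 without BEZ235 replicate 2, within 0.000997 to 0.141. Under total-count scaling none of the 3 passed, and all kept a higher mean in BEZ235 under every alternative.

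**Figure D2:**
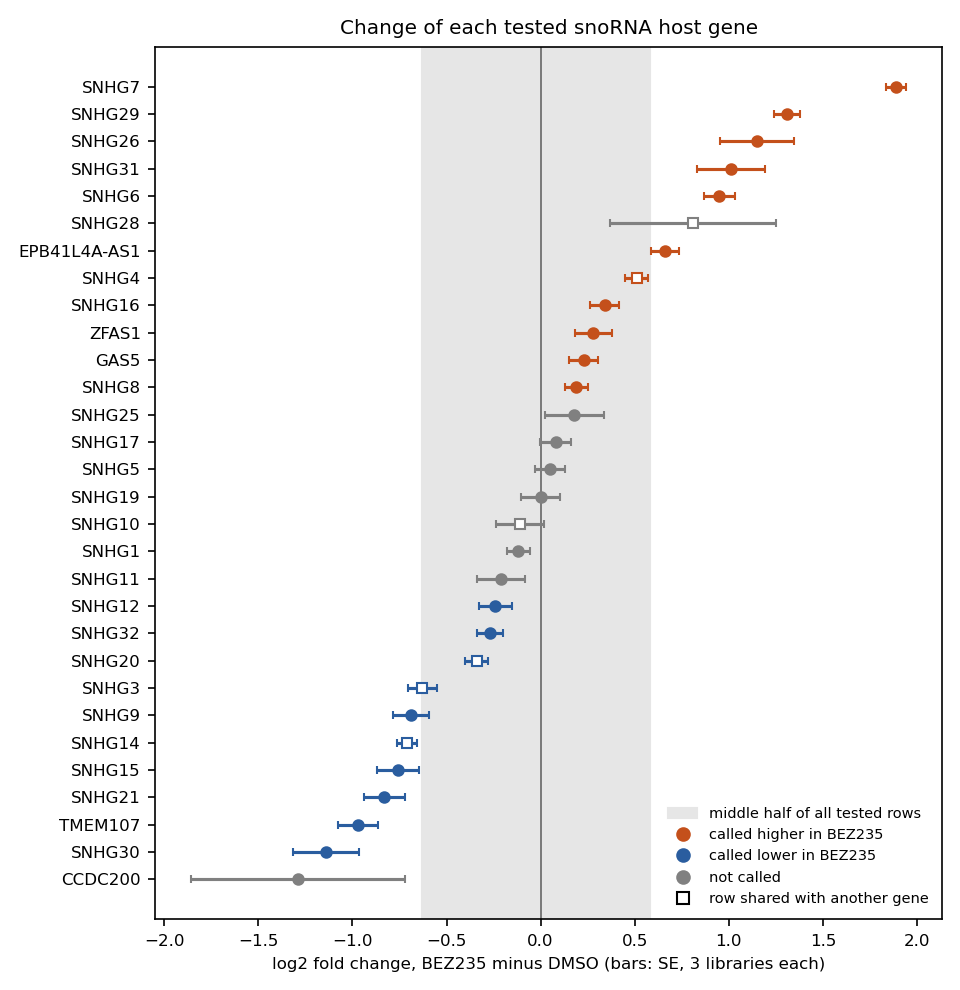
log2 fold change, BEZ235 minus DMSO, of the 30 tested snoRNA host genes with standard errors (3 libraries each); open squares are rows shared with another gene, and the grey band runs from the lower to the upper quartile of all tested rows, -0.63 to 0.58. The genes run from 1.89 for SNHG7 to -1.29 for CCDC200, on both sides of 0.

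Among the host genes that fell, SNHG30 and TMEM107 had the lowest fold changes. SNHG30 (chr17:35568114-35574312), host of SNORD7, had 97.3, 113 and 126 in BEZ235 against 273, 233 and 236 in DMSO (log2 fold change -1.14, SE 0.174, adjusted p = 0.000148). TMEM107 (chr17:8172457-8176388), which encodes a protein of the ciliary transition zone, had 1165, 1416 and 1327 in BEZ235 against 2268, 2927 and 2497 in DMSO (log2 fold change -0.97, SE 0.104, adjusted p = 9.12e-06). Neither gene had a BEZ235 library as high as its lowest DMSO library. SNHG21 (chr15:82750564-82757205) had 679.8, 589 and 782 in BEZ235 against 1267, 1165 and 1191 in DMSO (log2 fold change -0.83, SE 0.108, adjusted p = 4.42e-05). SNHG15 (chr7:44983023-44986696), an RNA known for its short half-life that hosts SNORA9, had 5209, 5472 and 5244 in BEZ235 against 7597, 11182 and 8638 in DMSO (log2 fold change -0.76, SE 0.112, adjusted p = 0.000113). SNHG9 (chr16:1964996-1965502), host of SNORA78, had 569.8, 663 and 612 in BEZ235 against 1066, 967 and 941 in DMSO (log2 fold change -0.69, SE 0.096, adjusted p = 7.54e-05). All 3 were lower in every BEZ235 library, and the DMSO libraries of SNHG15 were the most spread.

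The 3 merged rows that fell were those of SNHG14, SNHG3 and SNHG20. The SNHG14 row had 17833, 17591 and 16437 in BEZ235 against 27082, 28451 and 29144 in DMSO (log2 fold change -0.71, SE 0.054, adjusted p = 5.98e-07). The row of SNHG3 and RCC1, the exchange factor of the small GTPase Ran, had 9319, 9468 and 8945 in BEZ235 against 12602, 15909.7 and 14482 in DMSO (log2 fold change -0.63, SE 0.077, adjusted p = 2.79e-05). The row of SNHG20 and SEC14L1 had 9826, 10148 and 9629 in BEZ235 against 11681, 13423 and 12417 in DMSO (log2 fold change -0.34, SE 0.060, adjusted p = 0.00042). Each was apart between the groups, but the table does not separate host RNA from partner mRNA. The SNHG20 row lies wholly within SEPTIN9, a septin gene that rose (log2 fold change 0.97, SE 0.061, adjusted p = 1.31e-07).

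SNHG32 and SNHG12, both with a pyrimidine start, fell by little. SNHG32 (chr6:31834868-31839761), host of SNORD48 and SNORD52, had 156254, 158926 and 142298 in BEZ235 against 190510.2, 171997 and 187525 in DMSO (log2 fold change -0.27, SE 0.068, adjusted p = 0.00496). SNHG12 (chr1:28578538-28586577), host of SNORD99, had 15231, 14311 and 13856 in BEZ235 against 19659, 14839.6 and 17124 in DMSO (log2 fold change -0.24, SE 0.088, adjusted p = 0.0317). The SNHG32 groups were apart and the SNHG12 groups overlapped. The SNHG12 call was lost without BEZ235 replicate 2 (adjusted p = 0.0859), BEZ235 replicate 3 (0.111), DMSO replicate 1 (0.104) or DMSO replicate 3 (0.0775), within a range of 0.000695 to 0.127 over the 17 alternatives.

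The 9 tested genes that were not called had adjusted p from 0.0653 to 0.994. SNHG1, host of SNORD28 and SNORD30 and among the classic noncoding hosts, had 214773, 215638 and 205072 in BEZ235 against 235697, 220046 and 232998 in DMSO (log2 fold change -0.12, SE 0.061, adjusted p = 0.115). Its groups were apart but close, and it was called lower under quantile normalization (adjusted p = 4.74e-05), total-count scaling (0.00361) and DESeq2 (0.0416), within a range of 4.74e-05 to 0.287. SNHG5, with 170411, 159337 and 168396 in BEZ235 and 179292, 142832 and 162011 in DMSO, overlapped between groups. SNHG19, SNHG17, SNHG25, SNHG10 and SNHG11 had log2 fold changes of -0.00, 0.08, 0.18, -0.11 and -0.21. The 2 with the least signal, SNHG28 and CCDC200, had means of 30.8 and 12.7 normalized counts in BEZ235 and of 17.1 and 32.4 in DMSO. Some calls turned on 1 library. CCDC200 was called lower without BEZ235 replicate 3 (adjusted p = 0.0317) or DMSO replicate 2 (0.0305), within 0.0305 to 0.241, SNHG11 was called lower without DMSO replicate 1 (0.0118), within 0.0118 to 0.607, and SNHG17 was called higher without DMSO replicate 2 (0.0132), within 0.0132 to 0.918.

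A pyrimidine start, as searched for in this short window, did not go with a single direction. Of the 8 tested genes that have it, SNHG4, SNHG7, SNHG8 and ZFAS1 rose, SNHG12 and SNHG32 fell, and SNHG5 and SNHG19 were not called, with log2 fold changes from -0.27 to 1.89 and a median of 0.12. Of the 18 tested genes with a RefSeq start lacking it, 6 rose and 6 fell, with log2 fold changes from -1.29 to 1.31 and a median of -0.11. GAS5, named above as a TOP RNA, is among these 18. The stretch read for it, chr1:173869006-173869085, lies outside its row, chr1:173863899-173868882. Also among the 18 are genes in which such a run crosses the edge of the window. They are SNHG16, SNHG29 and SNHG31, which rose, the SNHG14 row, which fell, and SNHG17, which was not called. The SNHG4 values are those of its row merged with MATR3. The second list includes the merged rows of SNHG3, SNHG10, SNHG14, SNHG20 and SNHG28. No test was made between these lists.

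The table also has rows for snoRNAs, which allowed some hosts to be set beside the snoRNA rows inside them. It held 427 snoRNA and small Cajal body RNA rows, of which 182 were tested, and 16 rose and 66 fell (45.1% called, 8.79% higher and 36.3% lower). A row was counted where any of its symbols named such an RNA, so rows merged with another gene are included. Among those outside the host genes is the row of EEF1A1, SNORD141A and SNORD141B, which spans 5513 bases and rose (log2 fold change 0.96). Inside the host genes lay 93 such rows, in 23 genes, and 46 of them were tested. The other host genes had none, among them SNHG7 and SNHG15, the host of SNORA9. A snoRNA without a row of its own could not be compared with its host. SNHG14 is taken separately below because it held 56 of the 93. Of the 37 rows inside the other hosts 34 were tested, 33 of them at 10 normalized counts or more in all 6 libraries. Of these 34 rows 16 fell (47.1%) and 2 rose (5.88%), with a median log2 fold change of -0.50. The rows tilted lower both inside and outside these hosts: of 136 tested snoRNA rows elsewhere 50 fell (36.8%) and 6 rose, with a median of -0.77. The RNA was purified on RNeasy columns, and how well these kept RNAs as short as snoRNAs was not measured. A snoRNA row may hold mature snoRNA or unspliced host, which cannot be told apart here, so its change is not a measure of mature snoRNA.

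Inside hosts that rose, few snoRNA rows rose with the host, and few rose elsewhere. Of 19 tested rows in such hosts 10 fell (52.6%), 1 rose (5.26%) and 8 were not called (median log2 fold change -0.52). Of the 136 tested snoRNA rows outside the host genes 36.8% fell and 4.41% rose, with a median of -0.77. Of the 10 rows that fell 8 lay in GAS5 and ZFAS1, whose own calls were lost under 6 and 7 of the 17 alternatives. Inside the hosts that kept a higher call under all 17, 2 of 8 tested rows fell (SNORD1B and SNORD87), 1 rose (SNORD93) and 5 were not called, with a median of -0.27. GAS5 is the fullest case, with 7 box C/D snoRNA rows of which 6 fell. No strand was given for these 7 rows, so they were assigned by coordinates alone. The GAS5 row also overlaps a row without a symbol (log2 fold change 0.21, over 1717 bases), GAS5-AS1 (0.30) and ZBTB37 (-0.46). SNORD74 had 233, 187 and 326 in BEZ235 against 570.4, 406 and 498 in DMSO (log2 fold change -1.01, SE 0.202, adjusted p = 0.00111). SNORD78 had 420.4, 406 and 538 in BEZ235 against 891, 607 and 864 in DMSO (log2 fold change -0.78, SE 0.162, adjusted p = 0.00135). SNORD44 had 872, 666 and 780.1 in BEZ235 against 1409.7, 1054 and 1202 in DMSO (log2 fold change -0.66, SE 0.127, adjusted p = 0.000814). These 3 were apart between the groups. SNORD79 (-0.49), SNORD77 (-0.52) and SNORD81 (-0.33) also fell on the log2 scale, and SNORD75, at -0.25, was not called. The 7 rows together amounted to 2.94%, 2.56% and 3.13% of the GAS5 row in BEZ235, against 5.23%, 4.6% and 4.92% in DMSO. SNORD77 was not called without BEZ235 replicate 2 (adjusted p = 0.0767), DMSO replicate 1 (0.0631) or DMSO replicate 3 (0.0619), within 0.000318 to 0.0772 over 17 alternatives, nor SNORD81 without BEZ235 replicate 2 (0.0618), within 0.00378 to 0.0618. The groups of SNORD77 and of SNORD79 overlapped, and SNORD79 was not called by limma without the trend (adjusted p = 0.061), within 2.7e-05 to 0.061.

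In ZFAS1, SNORD12C had 27.8, 26.6 and 35.3 in BEZ235 against 58.3, 62 and 95.1 in DMSO (log2 fold change -1.21, SE 0.324, adjusted p = 0.00662). SNORD12B had 83.4, 65.2 and 139 in BEZ235 against 249.5, 146 and 158 in DMSO (log2 fold change -0.97, SE 0.301, adjusted p = 0.0148), and SNORD12 was not called (-0.19). In SNHG16, SNORD1B had 34.7, 43.4 and 87.9 in BEZ235 against 146, 91.9 and 139 in DMSO (log2 fold change -1.25, SE 0.351, adjusted p = 0.00874). All 3 called rows were apart between groups while their hosts rose. In SNHG6, SNORD87 had 285, 264 and 323 in BEZ235 against 518, 332 and 418 in DMSO (log2 fold change -0.52, SE 0.168, adjusted p = 0.0181). In SNHG29, which rose more than 2-fold, SNORD65 had 671, 575 and 688 in BEZ235 and 800.4, 521 and 656 in DMSO, overlapping and not called. The calls of SNORD12B and SNORD87 were lost without BEZ235 replicate 2 (adjusted p = 0.066 and 0.0702) and without DMSO replicate 1 (0.0553 and 0.0697), and that of SNORD87 also without DMSO replicate 3 (0.0517). Over 17 alternatives these ranged from 0.00416 to 0.066 for SNORD12B and from 0.00177 to 0.0702 for SNORD87.

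Of 8 tested snoRNA rows inside hosts that were not called 4 fell (50%), against 36.8% of the tested snoRNA rows outside the host genes. In SNHG1, SNORD28 had 552, 503 and 530.04 in BEZ235 against 1789, 1072 and 1502 in DMSO (log2 fold change -1.43, SE 0.156, adjusted p = 1.13e-05), and SNORD30 had 448, 296 and 470.2 in BEZ235 against 1043, 747 and 836 in DMSO (log2 fold change -1.13, SE 0.181, adjusted p = 0.000219). In SNHG17, SNORA71C had 48.6, 47.4 and 97.8 in BEZ235 against 237, 155 and 168 in DMSO (log2 fold change -1.57, SE 0.304, adjusted p = 0.000848), and SNORA71A had 62.5, 23.7 and 65.2 in BEZ235 against 156, 96.1 and 125 in DMSO (log2 fold change -1.40, SE 0.383, adjusted p = 0.0075). All 4 rows were lower in every BEZ235 library than in any DMSO library. Of the other 4 tested rows in hosts not called, SNORD60 (-0.03), SNORD104 (-0.18) and SNORD50A (-0.01) were not called, and SNORD50B in SNHG5 rose, with 247, 258 and 269 in BEZ235 against 185, 161 and 158 in DMSO (log2 fold change 0.62, SE 0.148, adjusted p = 0.00342). The other row that rose, SNORD93 in SNHG26, had 38.2, 53.3 and 57.1 in BEZ235 against 32.4, 21.7 and 22.5 in DMSO (log2 fold change 0.93, SE 0.358, adjusted p = 0.0394). SNORD93 was not called without BEZ235 replicate 2 (adjusted p = 0.109), BEZ235 replicate 3 (0.107), DMSO replicate 2 (0.0858) or DMSO replicate 3 (0.0985), within 0.0151 to 0.109 over 16 alternatives.

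Among hosts that fell, SNORD99 in SNHG12 (log2 fold change -0.80, SE 0.204, adjusted p = 0.00484) fell with the host. SNORA73B (log2 fold change -0.48, SE 0.157, adjusted p = 0.0196) fell with the merged row of SNHG3 and RCC1, in which SNHG3 was not measured separately. Outside SNHG14, 5 further rows were not called. SNORA73B was not called without BEZ235 replicate 2 (adjusted p = 0.0907) or DMSO replicate 1 (0.0652), within 0.00309 to 0.0907 over 17 alternatives. Across all hosts other than SNHG14, 13 of 25 tested box C/D rows (52%) and 3 of 8 tested box H/ACA rows (37.5%) fell, against 36.3% of all tested snoRNA rows.

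**Figure D3:**
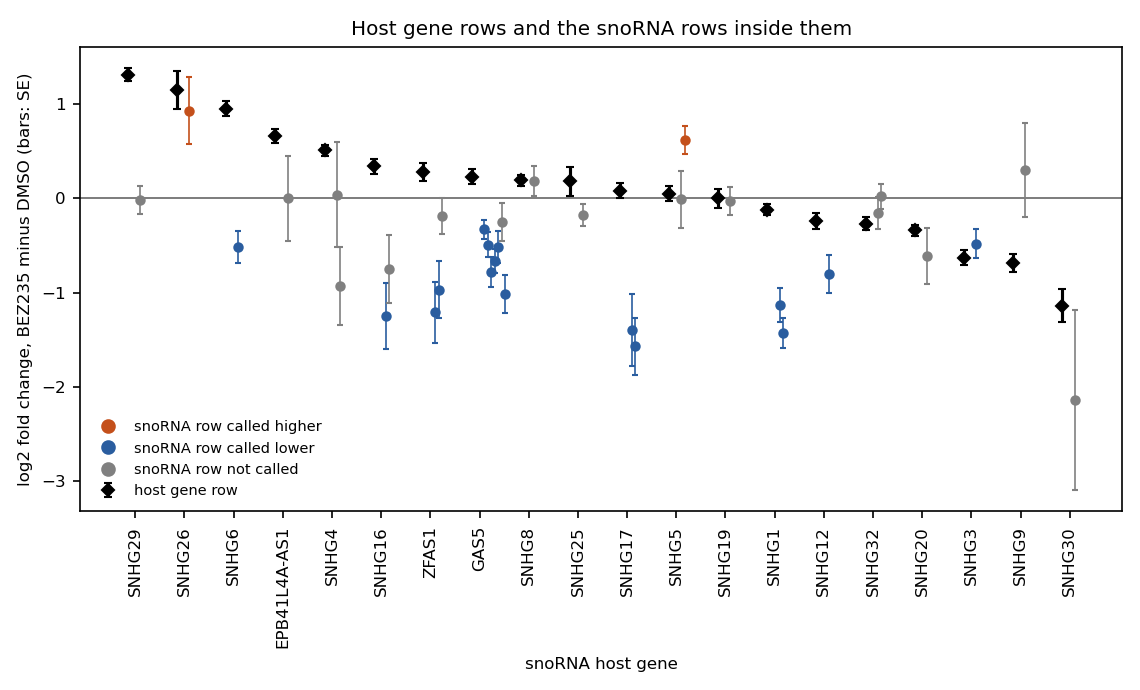
log2 fold change, BEZ235 minus DMSO, with standard errors (3 libraries each), of host gene rows (black diamonds) and of the tested snoRNA rows inside them (circles). Every host other than SNHG14 that had a tested snoRNA row is shown, from the highest to the lowest fold change. In GAS5, ZFAS1, SNHG16 and SNHG6 the host lies above 0 and the snoRNA rows called lower lie below 0.

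Shown on GRCh38 are snoRNAs inside host genes other than SNHG14 whose rows fell and that GENCODE v29 names. Of these the 7 with the lowest fold changes are given, beside SNORD50B, whose row rose. In box C/D snoRNAs the letters TGATGA near the 5′ end (box C) and the last CTGA (box D) are in capitals where a search found them, and in box H/ACA snoRNAs the ACA near the 3′ end. They show that the rows that fell cover both snoRNA classes. SNORD50B has both boxes, as do SNORD30, SNORD1B, SNORD12C and SNORD12B.
SNORD28, chr11:62854621-62854695, - strand: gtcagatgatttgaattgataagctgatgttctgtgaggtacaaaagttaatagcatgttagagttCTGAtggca
SNORD30, chr11:62853663-62853732, - strand: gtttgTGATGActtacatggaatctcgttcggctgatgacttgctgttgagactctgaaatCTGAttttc
SNORD1B, chr17:76561109-76561192, + strand: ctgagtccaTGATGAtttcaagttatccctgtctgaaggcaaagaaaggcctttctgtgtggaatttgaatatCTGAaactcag
SNORD12C, chr20:49278940-49279028, + strand: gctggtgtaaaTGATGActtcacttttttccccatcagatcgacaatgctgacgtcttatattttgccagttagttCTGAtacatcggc
SNORD12B, chr20:49280319-49280409, + strand: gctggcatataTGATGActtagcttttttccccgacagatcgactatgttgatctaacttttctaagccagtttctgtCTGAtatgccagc
SNORA71C, chr20:38429670-38429803, - strand: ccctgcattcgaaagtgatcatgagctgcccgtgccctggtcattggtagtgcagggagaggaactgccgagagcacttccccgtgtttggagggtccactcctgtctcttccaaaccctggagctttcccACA
SNORA71A, chr20:38427309-38427442, - strand: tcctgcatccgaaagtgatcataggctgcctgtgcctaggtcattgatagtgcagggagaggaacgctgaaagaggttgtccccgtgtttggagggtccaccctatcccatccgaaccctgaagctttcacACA
SNORD50B, chr6:85677589-85677658, - strand: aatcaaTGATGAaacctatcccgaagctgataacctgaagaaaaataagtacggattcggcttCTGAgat
SNORD28 lacks the exact letters TGATGA in its first 25 bases.

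SNHG14 is the long RNA of the imprinted Prader-Willi region, which begins with SNRPN and SNURF, contains the SNORD116 and SNORD115 clusters and runs on opposite to UBE3A. Its row (chr15:24823608-25419462) is merged with IPW, SNRPN and SNURF and fell, as given above, while the snoRNA rows within its span did not follow it. Of its 56 snoRNA rows 12 were tested, 8 rose, 4 were not called, and none fell, whether by limma, at an unadjusted p under 0.05, or by edgeR or DESeq2. The filter favours rows that are high in BEZ235 here. Of the 12 rows 6 reached 10 normalized counts in all 3 DMSO libraries, and these 6 all rose. They include the row that merges SNORD108 and SNORD64 with the noncoding gene PWAR5 and spans 3375 bases. The other 6 reached 10 in more BEZ235 than DMSO libraries, so their direction was in part fixed by the filter, and 2 of them rose. At a filter of 50 the number that rose was 4. SNORD116 accounted for 20 rows, of which 10 were tested and 6 rose. Summed over all 20 rows, tested or not, SNORD116 had 659, 763.1 and 621.6 normalized counts in BEZ235 against 184.7, 400.8 and 231.99 in DMSO, so that the lowest BEZ235 library was above the highest DMSO library. SNORD116-21 had 263, 289 and 222 in BEZ235 against 68, 184 and 104 in DMSO (log2 fold change 1.22, SE 0.304, adjusted p = 0.00435). SNORD116-16 had 48.6, 97.7 and 51.6 in BEZ235 against 13, 21.7 and 12.5 in DMSO (log2 fold change 1.97, SE 0.422, adjusted p = 0.00169). The copies are near-identical, so reads may have been split between them, as a pair of them shows.
SNORD116-16, chr15:25082768-25082859, + strand: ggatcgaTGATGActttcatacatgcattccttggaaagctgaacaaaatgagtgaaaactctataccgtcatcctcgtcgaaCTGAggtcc
SNORD116-21, chr15:25088804-25088895, + strand: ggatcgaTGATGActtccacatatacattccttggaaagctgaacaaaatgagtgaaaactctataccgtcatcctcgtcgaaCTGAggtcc
Of 34 SNORD115 rows 33 were at 0 in every library and none was tested.

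Other rows of the same span moved with SNORD116. Those of SNORD109A and PWAR5 are already among the snoRNA rows counted above, and PWAR6 is not. The row of SNORD109A and SNORD109B had 93.8, 91.8 and 117 in BEZ235 against 38.9, 34.1 and 42.6 in DMSO (log2 fold change 1.36, SE 0.260, adjusted p = 0.000781). PWAR6, a noncoding RNA of the region, had 1089, 1635 and 2165 in BEZ235 against 552, 480.3 and 591 in DMSO (log2 fold change 1.54, SE 0.2, adjusted p = 4.39e-05). The row of PWAR5, SNORD108 and SNORD64 had 1262, 1707 and 1942 in BEZ235 against 1010, 817 and 785 in DMSO (log2 fold change 0.90, SE 0.150, adjusted p = 0.000304). All 3 were higher in every BEZ235 library. UBE3A, the ubiquitin ligase gene on the opposite strand, rose less (log2 fold change 0.35, SE 0.052, adjusted p = 0.00012). The SNHG14 part of the merged row was not measured separately.

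**Figure D4:**
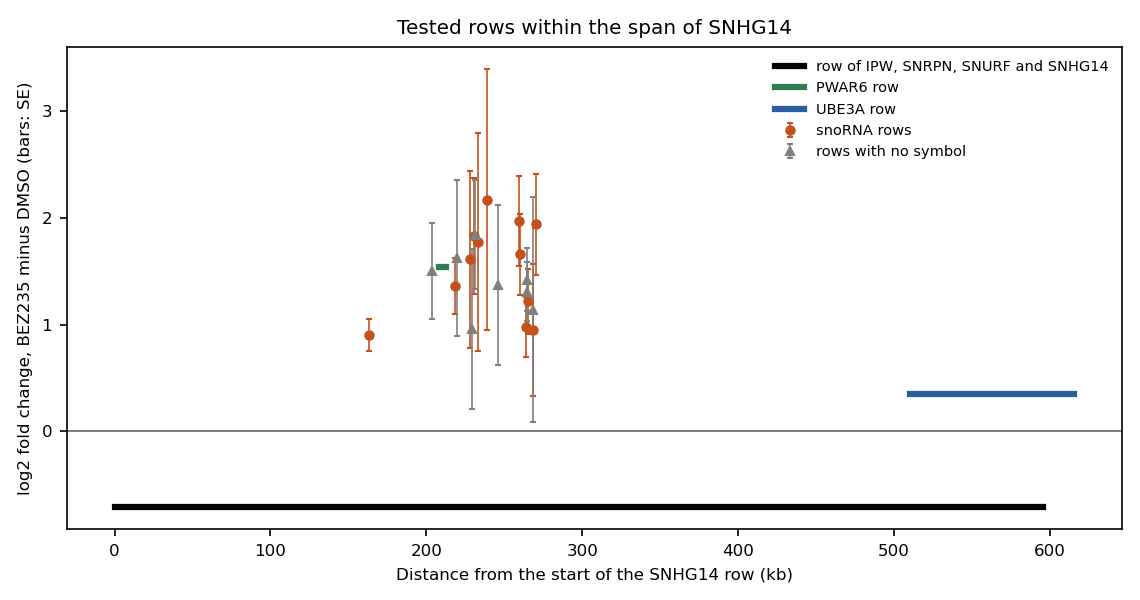
log2 fold change, BEZ235 minus DMSO, with standard errors (3 libraries each), of the tested rows within the span of SNHG14, against the distance in kb from the start of its row. The merged row (black line) lies at -0.71, the snoRNA rows lie at 0.90 to 2.17, and the UBE3A row lies at 0.35.

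Genes that act on host RNAs and snoRNAs were called in both directions, as were all tested rows (33.1% higher and 33.2% lower). Of 19 listed core proteins and assembly factors of snoRNA particles 7 rose (36.8%) and 5 fell (26.3%), near those shares, and the median change was 0.00 on the log2 scale. NHP2, a core H/ACA protein, averaged 77004 ± 3030 in BEZ235 and 49157 ± 2398 in DMSO (SD, n = 3 each; log2 fold change 0.65, SE 0.057, adjusted p = 1.92e-06), and the assembly factors ZNHIT3 (0.50) and SHQ1 (0.60) also rose. The core proteins NOP10 (-0.34), SNU13 (-0.21) and NOP58 (-0.24) fell. Of 24 listed genes of nonsense-mediated decay and the exon junction complex 9 rose (37.5%) and 12 fell (50%), with a median of -0.15. The helicase gene DHX34, which averaged 2287 ± 142 in BEZ235 and 1139 ± 18.9 in DMSO (SD, n = 3 each), and the exon junction genes RNPS1 (0.61) and RBM8A (0.58) rose, and PNRC2 (-0.88), SMG5 (-0.78) and MAGOH (-0.70) fell. Of 18 listed genes of the nuclear exosome, its cofactors and XRN2 9 rose (50%) and 7 fell (38.9%), with a median of 0.02. EXOSC5 (0.97), XRN2 (0.60) and MTREX (0.45) rose, and EXOSC8 (-1.23), EXOSC7 (-0.76) and EXOSC1 (-0.51) fell.

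The noncoding hosts can be set beside protein-coding genes that host snoRNAs in their introns. Of 47 such genes listed, among them many ribosomal protein genes, 39 rose (83%) and 6 fell (12.8%), against 33.1% and 33.2% of all tested rows, and the median change was 0.55 on the log2 scale. EIF4A1, a translation initiation helicase, averaged 430196 ± 20174 in BEZ235 and 142580 ± 7403 in DMSO (SD, n = 3 each; log2 fold change 1.59, SE 0.067, adjusted p = 7.82e-09). HSPA8 (1.72), a cytosolic chaperone, and TCP1 (0.75), a chaperonin subunit, rose, and HSPA9 (-1.14), CNOT1 (-0.50) and AP1G1 (-0.23) fell. Of 51 tested snoRNA rows inside these hosts 24 fell (47.1%) and 1 rose, with a median of -0.71, against 36.3% and 8.79% of all tested snoRNA rows. Of 22 listed TOP mRNAs other than ribosomal protein genes 21 rose (95.5%) and 1, COX4I1 (-0.26), fell, with a median of 0.87, led by HNRNPA1 (1.99), EIF4B (1.93) and VIM (2.12). No test was made between these lists and the noncoding hosts. Both noncoding hosts with other names that were listed rose: DANCR, host of SNORA26, averaged 16746 ± 625 in BEZ235 and 9276 ± 797 in DMSO (log2 fold change 0.86, SE 0.066, adjusted p = 6.74e-07), and MEG8, of the imprinted DLK1 region, averaged 155 ± 26 in BEZ235 and 88.4 ± 21.3 in DMSO (log2 fold change 0.82, SE 0.236, adjusted p = 0.0101), as mean ± SD of 3 libraries each.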

How the data were processed

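Per the labels' protocols, RNA of biological replicates was purified on RNeasy columns and treated with DNase. The authors deposited normalized gene counts, a signal that is never negative, on FASTDB genes with hg38 coordinates. Tools named in the submitters' processing notes are STAR 2.4.0, DESeq, SAMtools, Picard and FastQC; no source used here gives their roles, the RNA selection or the strand setting. Control columns were matched to DMSO samples by number. Of the 48114 rows 21404 carry no symbol and were kept by identifier.

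Between 99.992% and 99.998% of the values in a column were whole multiples of a step of 0.835 to 1.16 normalized counts (tolerance 0.01), summing to 184790722 to 233767211 steps per library. A step need not be 1 read: in rows under 200 bases 88.5% to 90.1% of non-zero values were multiples of 3 steps, against 36.6% to 37.8% in rows over 20000 bases. Depth in reads is therefore unknown, and count tests on steps may overstate precision. A value of 0 allows up to 3 steps, 2.50 to 3.47 normalized counts, counting error only.

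limma 3.58.1 with a mean-variance trend (R 4.3.3) was fitted to log2(normalized count + 1), two-sided, with treatment as the only term. The scale understates changes of low rows. edgeR 4.0.16 and DESeq2 1.42.0 on steps, other scalings, pseudocounts, filters, a replicate block and leaving out each library were alternatives. snoRNA rows were assigned to a host by coordinates, on the strand of the GENCODE v29 or RefSeq annotation where given (not given for 8 tested rows). Inside the listed protein-coding hosts snoRNA rows were assigned by coordinates alone, whatever their strand. The scripts were tested on simulated data. Called host genes whose higher group averaged at least 100 are given by library, and up to 3 genes per direction of each other list by the smallest adjusted p; snoRNA rows were chosen after their values were seen. Host genes and lists were chosen with earlier results of these data known.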

Additional observations from a re-analysis of the deposited data

How the results depend on the processing

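Of the 21 called host genes 17 kept their direction and call under all 17 alternatives, and GAS5, ZFAS1, SNHG8 and SNHG12 each lost the call under 4 to 7 of them; no called host gene changed sign. The number called was 18 to 22 over these alternatives, 18 to 21 when leaving out a library. edgeR called 15744 of all rows and DESeq2 15706, against 15863 by limma, and 21 and 22 host genes. Same-numbered libraries did not deviate together (correlations of -0.0379, 0.0231 and 0.0435), so no pairing by number was detected, which does not show that there was none. With the replicate block 21 host genes and 15917 rows were called. For snoRNA rows, alternatives other than a pseudocount of 10 and leaving out a library were chosen after seeing the data, as was the separate count for SNHG14 under every alternative. The number of snoRNA rows that fell inside hosts other than SNHG14, 16 as reported, was 11 by limma without the trend, 16 to 18 under the other alternatives with all libraries, and 11 to 18 when leaving out a library (11 without BEZ235 replicate 2, 12 without DMSO replicate 1). The number of snoRNA rows that rose inside hosts other than SNHG14 was 1 in place of 2 under total-count scaling, no filter, a filter at 50, the replicate block, edgeR and DESeq2, and 1 to 2 when leaving out a library. Inside SNHG14 4 rather than 8 rose at a filter of 50, and 8 to 10 when leaving out a library. Values that changed sign were all of features not called: SNHG19 (0.01 with TMM, 0.07 with quantile normalization), SNHG5 (-0.07 with quantile, -0.05 with total-count scaling), SNHG17 (-0.02 with total-count scaling), SNORD65 (0.04, quantile), SNORD50A (0.04, quantile), SNORD52 (-0.08, total-count), SNORA74D (-0.06 total-count, -0.01 pseudocount 10, -0.10 edgeR and DESeq2) and SNORA13 (0.00 TMM and quantile, 0.02 pseudocount 10, 0.12 edgeR and DESeq2). Leaving out a library gave -0.22 to 0.00 for SNHG10, -0.13 to 0.11 for SNHG19, -0.04 to 0.13 for SNHG5, -0.17 to 0.14 for SNORD65, -0.45 to 0.25 for SNORA13, -0.26 to 0.20 for SNORD50A, -0.17 to 0.06 for SNORD60, -0.09 to 0.17 for SNORD52, -0.50 to 0.44 for SNORA74D and -0.10 to 0.73 for SNORA78. The cause of these changes was not tested. Overlapping rows limit 16 of the 30 tested host genes.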

Other observations

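Long noncoding RNAs not named as snoRNA hosts were called in both directions at shares near those of all tested rows (33.1% higher and 33.2% lower). Of 32 listed, 30 were found in the table and tested, 12 rose (40%) and 11 fell (36.7%), and the median change was 0.06 on the log2 scale. CASC2 averaged 548 ± 50.8 in BEZ235 and 117 ± 38.5 in DMSO normalized counts (log2 fold change 2.26, SE 0.220, adjusted p = 4.27e-06), HCG11 3811 ± 217 in BEZ235 and 1280 ± 19.2 in DMSO (log2 fold change 1.57, SE 0.066, adjusted p = 7.49e-09) and TUG1 32068 ± 1063 in BEZ235 and 14433 ± 678 in DMSO (log2 fold change 1.15, SE 0.054, adjusted p = 1.52e-08), as mean ± SD of 3 libraries each. CRNDE averaged 2535 ± 197 in BEZ235 and 8747 ± 523 in DMSO (log2 fold change -1.79, SE 0.072, adjusted p = 5.35e-09), and CYTOR (-1.27) and PVT1 (-0.63) also fell. Of the rows with a mean of at least 10000 normalized counts in a group, 16 were host genes, of which 9 rose and 5 fell (87.5% called), against 83.8% of 3532 such rows in all.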
